A study of Mus musculus with 11 samples.

Results

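The tiles described here are the 2 kb windows of the mouse autosomes with the highest capture signal for 5-hydroxymethylcytosine (5hmC), 1232 of 1231381 autosomal tiles and of 1362779 tiles in all. They were chosen as the autosomal tiles with the top 0.1% of means of log2 RPKM over all 11 libraries, which starts at a mean of 3.61. RPKM is a read rate per length and library total. Levels are given as RPM, recovered reads over the total of reads recovered on all tiles of the library. On this scale values are lower than those the deposited RPKM would give over 2 kb, by 2.321 to 2.323 times (median of a library), for a reason that is not known. The ratio was nearly the same in every library. 5hmC had been captured from sheared genomic DNA with a commercial kit (HMCP-seq). The libraries were 3 of DNMT_WT epiblast-like cells (EpiLC) at day 2, and of TET_WT 3 at day 0 as embryonic stem (ES) cells in 2i/Lif, 2 at day 1 (numbered 2 and 3) and 3 at day 2 of EpiLC differentiation. TET_WT and DNMT_WT are the wild-type parental lines of triple knockouts of the Tet genes and of Dnmt1, Dnmt3a and Dnmt3b. The knockout lines and embryoid bodies were not analysed here, nor was any input or unenriched library. The labels do not say whether replicates were separate cultures or whether a line is a single clone, so p-values rest only on the spread between these libraries. The fit drew each tile's spread towards that of tiles of like level. A p-value or standard error (SE) thus does not measure the tile's own spread alone.

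5hmC is made from 5-methylcytosine by the TET dioxygenases, whose oxidation of the mark is a step towards unmethylated cytosine. In many cell types it is found along gene bodies and at enhancers. Pluripotent ES cells kept in 2i/Lif are known for low DNA methylation, which is re-established as they become EpiLC, a model of the early post-implantation epiblast. Reads from repeated sequence that the assembly holds in fewer copies than the genome pile up on the copies present, so that very high tiles in any capture experiment can hold such sequence.

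These tiles had been proposed as likely collapsed repeats of that kind. Copy number and repeat annotation of the tiles were not analysed here, since only promoter and miRNA sequences of the build were used. The values set a small top apart from the bulk. Only 10 tiles averaged 64 RPM or more over the 11 libraries, 16 averaged 32 to 64, 194 averaged 16 to 32, and 1012 (82.1%) lay below 16, with 10.6 as the lowest. Of the 1232 tiles, 1100 (89.3%) lay in the annotated span of a protein-coding gene, against 78.5% of the 11082 tiles that fill up the top 1% and 41.3% of all autosomal tiles. They are called highest-signal tiles below, after the rule that chose them, and whether they are collapsed repeats was not tested. All were kept in the tests, and their lowest read number in a library was 47.

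The threshold fell inside a continuous range. The last tiles inside it, chr8:95576001-95578000 and chr10:79974001-79976000, both averaged 10.6 RPM, and the first outside it, chr5:111176001-111178000 and chr17:45516001-45518000, averaged 11.2 and 10.9 RPM. The rule used the mean of log2 values, so a tile just outside could have the higher mean on the linear scale.

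Promoter windows, from 250 bases before to 50 after a gene's start in the RefSeq table of GRCm38.p6, show what sequence sat under some of these tiles. Of the windows in that table, 45, of 42 genes, lay wholly inside a highest-signal tile. They held a median of 11 CG dinucleotides (quartiles 7 and 15), against 7 (quartiles 3 and 21) in all 31396 autosomal windows. CG, searched as these letters (the same on both strands), was present in each of the 45 and in 94.8% of all windows. The 4 below are those of Gm33862, a lncRNA inside the Sfi1 span with the highest tile among them (chr11:3136826-3137125, plus strand), Duxf3, a double-homeobox gene (chr10:58233040-58233339, minus strand), Dazl, an RNA-binding protein gene of germ cells (chr17:50293571-50293870, minus strand), and H2-Q6, an MHC class I gene whose tile differed between the lines (chr17:35424600-35424899, plus strand). Capitals mark CG.
Gm33862: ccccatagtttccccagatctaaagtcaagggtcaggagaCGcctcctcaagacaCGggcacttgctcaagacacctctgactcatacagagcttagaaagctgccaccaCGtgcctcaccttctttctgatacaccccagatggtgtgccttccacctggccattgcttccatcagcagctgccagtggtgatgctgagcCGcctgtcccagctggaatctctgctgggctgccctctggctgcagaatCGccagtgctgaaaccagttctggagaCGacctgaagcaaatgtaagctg
Duxf3: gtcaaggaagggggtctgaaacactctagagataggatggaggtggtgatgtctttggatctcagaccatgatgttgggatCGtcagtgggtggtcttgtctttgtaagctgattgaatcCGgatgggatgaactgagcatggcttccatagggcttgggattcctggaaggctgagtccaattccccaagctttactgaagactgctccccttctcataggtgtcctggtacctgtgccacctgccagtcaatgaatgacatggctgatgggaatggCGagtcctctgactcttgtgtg
Dazl: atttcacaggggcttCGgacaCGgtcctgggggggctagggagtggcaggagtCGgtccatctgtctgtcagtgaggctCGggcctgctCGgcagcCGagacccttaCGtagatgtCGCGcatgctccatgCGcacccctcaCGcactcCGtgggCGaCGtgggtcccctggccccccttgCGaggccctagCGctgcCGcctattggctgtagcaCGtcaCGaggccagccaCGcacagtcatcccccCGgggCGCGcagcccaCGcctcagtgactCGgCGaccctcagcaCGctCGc
H2-Q6: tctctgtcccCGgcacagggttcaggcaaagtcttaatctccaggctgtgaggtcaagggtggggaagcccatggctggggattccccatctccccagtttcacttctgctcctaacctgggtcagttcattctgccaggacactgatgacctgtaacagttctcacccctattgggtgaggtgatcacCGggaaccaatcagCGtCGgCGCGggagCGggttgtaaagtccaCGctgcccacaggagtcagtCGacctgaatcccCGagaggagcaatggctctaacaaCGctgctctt

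A highest-signal tile also covered 12 of the 1136 autosomal miRNA genes annotated. Mir6948 is shown because its tile, chr14_54642001 (chr14:54642001-54644000), in Acin1 and Cdh24, rose over time. Capitals mark the seed, bases 2 to 8 of the mature strand (RefSeq, GRCm38.p6, positions chr14:54643050-54643070 and chr14:54643084-54643105, minus strand).
mmu-miR-6948-3p: uGUCCUUCcugucugaccaca
mmu-miR-6948-5p: aGUUCAGAcaggacugugacac
That tile averaged 19.9 RPM in DNMT_WT at day 2, and 7.52, 8.87 and 14.9 in TET_WT at days 0, 1 and 2. On the log2 scale it was 1.03 higher at day 2 than at day 0 (SE 0.13, adjusted p = 9.39e-11, limma). DNMT_WT minus TET_WT at day 2 was 0.42 (adjusted p = 0.0513), which did not pass.

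The 1232 tiles, 0.1% of the autosomal tiles, carried 1.93% to 2.91% of the reads of a library. The sums were 21652, 20758 and 21467 RPM in DNMT_WT at day 2. In TET_WT they were 24992, 29062 and 26258 at day 0, 22839 and 22787 at day 1, and 19470, 19303 and 19826 at day 2. Among the TET_WT groups each later day was lower, without overlap, and the DNMT_WT libraries lay between the TET_WT libraries of day 1 and of day 2. Since the tiles were chosen on this signal, the sums are a description.

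The tile chr2:98666001-98668000, outside annotated genes, decided most of that order. It held 2095, 2281 and 2186 RPM in DNMT_WT at day 2, and in TET_WT 7074, 7331 and 8097 at day 0, 3771 and 3743 at day 1, and 2132, 1923 and 2119 at day 2. At day 0 it took 28.1% ± 2.8 (SD, n = 3) of the reads of all 1232 tiles. Without it, the sums were 19557, 18477 and 19281 RPM in DNMT_WT at day 2, and in TET_WT 17918, 21731 and 18161 at day 0, 19068 and 19044 at day 1, and 17339, 17380 and 17707 at day 2. The days then overlapped, except that all day 2 libraries of TET_WT lay below those of day 0 and day 1.

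**Figure D1:**
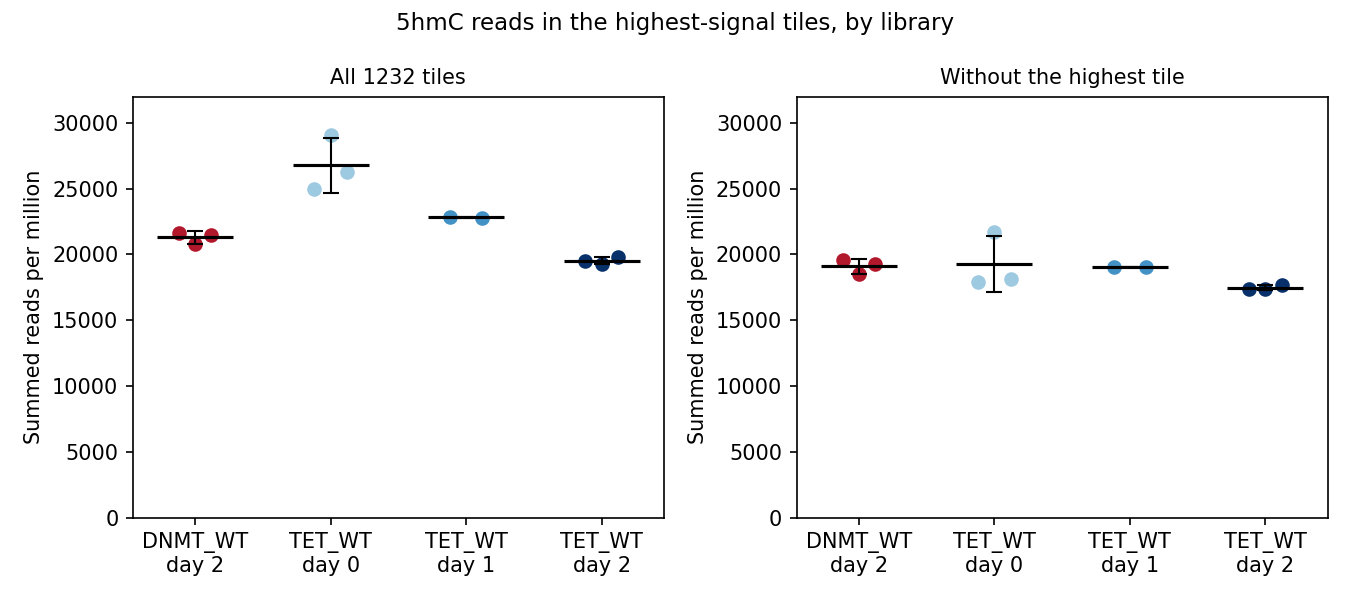
Summed RPM of all 1232 highest-signal tiles (left) and without the highest tile (right). Points are libraries, in DNMT_WT at day 2 and in TET_WT at days 0, 1 and 2; lines are means and bars the SD. On the left the TET_WT groups are lower with each day and do not overlap; on the right only day 2 lies apart, and day 0 replicate 2 stands at 21731.

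The sums of the top and of the bulk differed in their order. The 10 tiles at 64 RPM or more summed to 3326 ± 95.6 in DNMT_WT at day 2 (SD, n = 3). In TET_WT they summed to 9810 ± 679 at day 0 (n = 3), 5268 ± 88.9 at day 1 (n = 2) and 3132 ± 128 at day 2 (n = 3). The 1012 tiles below 16 summed to 13556 ± 432 in DNMT_WT at day 2, and in TET_WT to 11943 ± 1618, 12859 ± 42.9 and 12294 ± 136 at days 0, 1 and 2. The TET_WT sums of these 1012 tiles overlapped between day 0 and the later days.

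Day 0 replicate 2 stood apart from the other day 0 libraries. Its tiles had a median 0.33 above the mean of replicates 1 and 3 on the log2 scale, while those 2 libraries differed by at most 0.585 at any tile. Yet 3 tiles were more than 1 lower in it. At chr6:103648001-103650000, in Chl1, it held 8.25 RPM, against 132 and 159 in replicates 1 and 3. At chr2:98664001-98666000 it held 13.3, against 162 and 187. At chr2:98662001-98664000 it held 241, against 651 and 766. For the main counts that rest on day 0, values without replicate 2 are also given below. Other counts that rest on day 0 may move as well.

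Depth ran from 7342012 reads in day 1 replicate 2 to 51604024 in day 0 replicate 1, recovered as whole numbers from the deposited values. A tile at 10 RPM thus rests on the fewest reads in that library. Day 1 replicate 3 had 27484272. The median spread between replicates at these tiles, as SD of log2 RPKM, was 0.10 in DNMT_WT at day 2, and 0.21, 0.10 and 0.09 in TET_WT at days 0, 1 and 2.

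The 26 tiles at 32 RPM or more lay at 11 places, and 12 of the 26 were in protein-coding genes and 12 outside annotated genes. Of the 26, 4 lay within 50 kb of a run of at least 25 tiles with no read in any library, or 15.4%, against 1.46% of all 1232 and 3.29% of all autosomal tiles. All 4 were among the 16 tiles at 32 to 64 RPM, and 0 among the 10 at 64 or more. Each tile was set against the median of the 10 tiles on either side, with other highest-signal tiles left out of that median. The excess can thus be larger where such tiles cluster. Of the 26, 20 stood more than 4 log2 units above it, and 6, in Fat1 and Sfi1, by 1.97 to 3.10. The median of this excess was 6.20 log2 units for the tiles at 32 to 64, against 2.37 for the 1012 tiles below 16.

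The neighbourhood of the highest tile held 2 more, both named above. At chr2:98662001-98664000 the means were 249 RPM in DNMT_WT at day 2, and 552, 395 and 222 in TET_WT at days 0, 1 and 2. At chr2:98664001-98666000 the libraries held 117, 126 and 110 RPM in DNMT_WT at day 2, against 59.5, 52.9 and 58.0 in TET_WT at day 2, a log2 difference of 1.05 (SE 0.19, adjusted p = 4.93e-05). That call was lost with voom on the recovered reads, at equal depth, without the variance trend, and with each chromosome scaled alike.

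Sfi1, which encodes a centrin-binding protein of the centrosome, held more of these tiles than any other gene, 22 of the 37 in its span on chromosome 11. It is a gene with known partial copies elsewhere in the mouse genome. Its tiles summed to 951, 919 and 964 RPM in DNMT_WT at day 2. In TET_WT they summed to 1363, 1954 and 1352 at day 0, 1116 and 1147 at day 1, and 1033, 1121 and 1019 at day 2. The highest of them, chr11:3192001-3194000, averaged 358 in DNMT_WT at day 2, and 655, 430 and 308 in TET_WT at days 0, 1 and 2. Over the 22 tiles, day 2 minus day 0 ran from -1.30 to 0.895, with 5 higher and 9 lower, or 9 and 9 without day 0 replicate 2. The tile chr11:3150001-3152000 fell by 0.76 (adjusted p = 3.31e-21, limma).

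Other high places were spread over the genome, and most of them were highest at day 0. At chr9:35304001-35306000, in the lncRNA gene Gm33838, the libraries held 60.6, 62.3 and 61.1 RPM in DNMT_WT at day 2. In TET_WT they held 221, 225 and 246 at day 0, 133 and 118 at day 1, and 66.4, 58.9 and 63.1 at day 2. The TET_WT groups did not overlap, and the day 2 libraries of both lines overlapped. At chr14:19414001-19416000, outside annotated genes, the means were 32.4 ± 0.599 RPM in DNMT_WT at day 2, and 121 ± 9.25, 62.9 ± 1.38 and 33.6 ± 2.12 in TET_WT at days 0, 1 and 2. At chr12:3110001-3112000, also outside genes, they were 21.0 ± 1.24 in DNMT_WT at day 2, and 62.4 ± 4.34, 36.7 ± 3.06 and 20.8 ± 0.695 in TET_WT at days 0, 1 and 2. The errors are SD over 3 libraries, or 2 at day 1. These tiles, on chromosomes 2, 9, 12 and 14, thus stood at day 2 near the same fraction of their day 0 level, 0.274, 0.272, 0.333 and 0.277 times.

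Other tiles of that height fell by less or were higher at day 2 than at day 1. The tile chr1:183298001-183300000, in Aida, averaged 49.9 ± 3.40 RPM in DNMT_WT at day 2, and 105 ± 5.59, 66.5 ± 3 and 45.5 ± 2.94 in TET_WT at days 0, 1 and 2. The tile chr17:39844001-39846000, which borders the annotated ribosomal RNA copy Rn18s-rs5, averaged 40.1 ± 1.31 in DNMT_WT at day 2, and 113 ± 29.2, 56.8 ± 0.546 and 71.1 ± 9.67 in TET_WT at days 0, 1 and 2. There TET_WT was higher at day 2 than at day 1 by 0.32 on the log2 scale (adjusted p = 0.0205), and DNMT_WT was lower than TET_WT at day 2 by a difference of -0.82 (SE 0.08, adjusted p = 9.83e-17). At chr15:75086001-75088000 the means were 76.7 ± 7.11 in DNMT_WT at day 2, and 151 ± 15.3, 94.6 ± 8.40 and 98.4 ± 9.55 in TET_WT at days 0, 1 and 2.

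**Figure D2:**
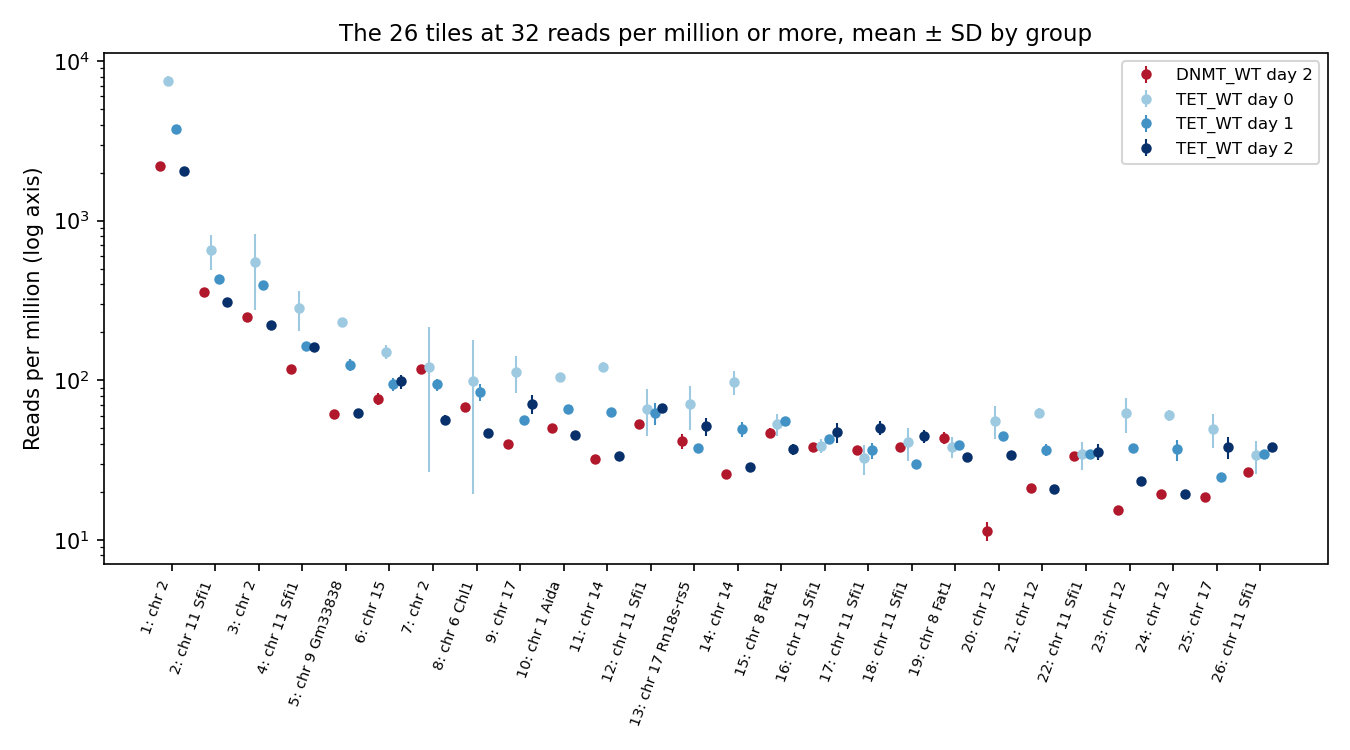
RPM (log axis) of the 26 tiles at 32 or more, ordered by their mean over all libraries and named by chromosome and gene; points are group means and bars the SD over 3 libraries, or 2 at TET_WT day 1. Most tiles outside genes are highest at day 0, among them the first at 7501, while most Sfi1 tiles are not. The long day 0 bars belong to tiles where replicate 2 stood apart, on either side.

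Day 2 against day 0 in TET_WT asks what the passage from naive cells to EpiLC does to these tiles. Of the 1232, 606 passed (adjusted p under 0.05 over all 1185205 tiles tested, limma), 344 higher and 262 lower at day 2, or 49.2%, against a background of 8.06% of all tiles, 5.36% higher and 2.7% lower. Among the 11082 tiles that fill up the top 1%, 39.6% passed. The median difference was 0.08 over the 1232 tiles and -0.05 over all tiles. With every library thinned to the shallowest (equal depth), these medians were 0.07 and -0.02. The split rested on single day 0 libraries: it was 263 higher and 259 lower without replicate 1, 456 and 216 without replicate 2, and 268 and 273 without replicate 3. The median over all tiles was then -0.0013, -0.20 and 0.04. Tiles with more reads are measured with less counting error, and the part of depth in these shares was not tested. With 1 common variance for all tiles in place of a variance that follows the level, only 14 of the 1232 passed.

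The split by level depended on which libraries gave the level. With the mean over all libraries, to which day 0 itself contributes, of the 26 tiles at 32 RPM or more, 17 fell and 2 rose, with a median difference of -0.63. Of the 194 tiles at 16 to 32, 70 fell and 40 rose, with a median of -0.11, and of the 1012 below 16, 175 fell and 302 rose, with a median of 0.12. Without day 0 replicate 2, the counts at 32 or more were 17 lower and 6 higher, and below 16 they were 133 lower and 400 higher. The level was also taken from DNMT_WT alone, a choice made after the data had been seen. Its libraries are not in the comparison, but they are EpiLC at day 2 and entered the mean of the rule. This level may thus favour tiles that are high at day 2. By it, 13 fell and 5 rose of 25 tiles at 32 or more. Of 355 at 16 to 32, 46 fell and 177 rose, and of 852 below 16, 203 fell and 162 rose. Outside annotated genes, 41 of 90 tiles fell and 19 rose, against 205 lower and 321 higher of the 1100 in protein-coding genes. Without day 0 replicate 2 these were 33 lower and 22 higher, and 169 lower and 429 higher. The largest falls, of more than 1 on the log2 scale, were at 34 tiles of 24 loci, of which 16 were in protein-coding genes.

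The largest fall was at chr9:3022001-3024000, outside annotated genes. It held 11.4, 11.1 and 12.1 RPM at day 2, against 42.6, 38.7 and 50.2 at day 0, a log2 difference of -1.92 (SE 0.11, adjusted p = 7.59e-38). Its neighbour chr9:3000001-3002000 held 11.9, 10.2 and 12.5 at day 2, against 41.8, 38.4 and 49.7 at day 0 (-1.90, SE 0.11). The highest tile of all, on chromosome 2, fell by 1.86 (SE 0.03, adjusted p = 1.28e-119), and by 1.77 with each library centred on its median and 1.85 at equal depth, where it did not pass (adjusted p = 0.507 and 0.947). No overlap between the groups was a condition for naming these largest falls. The tiles at chr6:103648001-103650000 (Chl1) and chr2:98664001-98666000 differed by -0.26 and -0.38 without passing. Without day 0 replicate 2 they fell by 1.64 and 1.61.

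The largest rises were at tiles of ordinary height in protein-coding genes. In Csnk1g2, a casein kinase gene, chr10:80638001-80640000 held 14.5, 15.7 and 15.1 RPM at day 2, against 4.32, 5.67 and 4.65 at day 0 (log2 difference 1.64, SE 0.13, adjusted p = 4.31e-24). It stood at 8.17 and 8.33 at day 1, and at 27.4, 27 and 24.3 in DNMT_WT at day 2. In Dock9, an activator of the GTPase Cdc42, chr14:121590001-121592000 averaged 16.8 ± 0.670 at day 2, against 6.15 ± 0.431 at day 0 (SD, n = 3 each; difference 1.45, SE 0.13). In Sik1, a salt-inducible kinase gene, chr17:31850001-31852000 averaged 13.3 ± 1.31 at day 2, against 5.42 ± 0.957 at day 0 (1.30, SE 0.13). A tile shared by Ercc2, a DNA repair helicase, and Klc3, a kinesin light chain, averaged 13.8 ± 1.18 at day 2, against 6.05 ± 1.07 at day 0 (1.20, SE 0.13). In each of these genes every day 2 library lay above every day 0 library, which was a condition for naming the tile. The day 1 libraries lay between.

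Day 1 against day 0 covers the first day of the passage. Here 202 of the 1232 tiles passed, 144 higher and 58 lower at day 1, or 16.4%, against a background of 1.03% (0.611% higher, 0.415% lower). The median difference was 0.15, and 0.19 over all tiles. At equal depth these were 0.14 and 0.0. The median over all tiles thus differed between these settings, and the cause was not tested. With only the groups compared, 23 were higher and 30 lower, and without day 1 replicate 2, 32 and 28. Without day 0 replicate 2, 318 were higher and 46 lower. Of the 26 highest, 15 fell and 0 rose, where without day 0 replicate 2 the numbers were 17 and 1. The median of the 26 was -0.62, with day 0 itself part of the level. With the level taken from DNMT_WT alone, which has the limit given above, 10 of 25 tiles at 32 RPM or more fell. There 2 rose, and the median was -0.04. The top tile fell by 0.99 (SE 0.03), and by 0.94 with median centring and 0.99 at equal depth and without the variance trend, where it did not pass. A tile in Abl1, a tyrosine kinase, rose the most and held 18.4 and 18.6 RPM at day 1, against 8.18, 10.1 and 8.95 at day 0 (log2 difference 1.03, SE 0.13, adjusted p = 1.22e-08, chr2:31800001-31802000). A tile in Cxxc1, which encodes a protein that binds unmethylated CG, held 11.3 and 10.6 at day 1, against 5.43, 5.83 and 5.77 at day 0 (0.95, SE 0.14). The count for this comparison moved the most with the library left out, to 60 without day 1 replicate 2, the shallowest library, and 364 without day 0 replicate 2.

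Day 2 against day 1 passed at 211 of the 1232 tiles, 63 higher and 148 lower at day 2, or 17.1%, against a background of 2.97% (2.41% higher, 0.562% lower). The median difference was -0.10, and -0.26 over all tiles. At equal depth these were -0.09 and -0.03. Here too the median over all tiles differed between these settings, and the cause was not tested. Among the 26 highest, 14 fell and 5 rose, with a median of -0.44. The 5 that rose stood in 2 places, the Sfi1 span and the tiles in and beside Rn18s-rs5. With the level taken from DNMT_WT alone, with the same limit, 10 of 25 tiles at 32 RPM or more fell. There 5 rose, and the median was -0.12. A tile in Il3ra, the interleukin 3 receptor alpha chain, fell the most and held 7.80, 8.11 and 9.09 RPM at day 2, against 18.9 and 17.6 at day 1 (log2 difference -1.13, SE 0.14, adjusted p = 6.09e-10, chr14:14350001-14352000). Rises were led by Ank3, the adaptor ankyrin-G, at 14.1, 12 and 13.8 at day 2, against 6.40 and 7.68 at day 1 (0.92, SE 0.15, chr10:69986001-69988000). The day 0 libraries are shared by 2 of these comparisons, and the day 1 and day 2 libraries likewise, so the 3 lists of calls are not independent.

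DNMT_WT against TET_WT at day 2 sets the 2 parental lines side by side. Of the 1232 tiles, 348 passed, 241 higher and 107 lower in DNMT_WT, or 28.2%, against a background of 3.27% (1.02% higher, 2.26% lower). The median difference was 0.14, and -0.12 over all tiles, or 0.15 and -0.0 at equal depth. Higher tiles were mostly in protein-coding genes, 232 of 241, where 1100 of all 1232 lay. With each library centred on its median, which moved the median of all tiles by 0.21, 29 were higher and 4 lower.

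The largest gain was at chr17:6492001-6494000, in the pseudogene Ppp1r2-ps5. It held 58.1, 52.5 and 55.3 RPM in DNMT_WT, against 14.7, 14.6 and 16 in TET_WT, a log2 difference of 1.87 (SE 0.10, adjusted p = 6.30e-41). The tile over the H2-Q6 promoter printed above held 33.0, 29.1 and 30.7 in DNMT_WT, against 10.9, 10.9 and 10.3 in TET_WT (1.53, SE 0.12, adjusted p = 5.30e-24). H2-Q6 belongs to a family of near-identical genes, so how its reads were placed is uncertain. All 6 tiles in Dnah8, a dynein heavy chain of sperm tails, were higher in DNMT_WT, with differences of 0.68 to 1.16. The lowest against TET_WT was chr14:51434001-51436000, in Gm7247, at 4.16, 5.28 and 4.39 in DNMT_WT, against 14.7, 13.8 and 13.9 in TET_WT (-1.62, SE 0.12). Outside genes, chr12:20230001-20232000 held 11.3, 12.9 and 9.92 in DNMT_WT, against 34.5, 32.5 and 35.6 in TET_WT (-1.60, SE 0.10). No overlap between the groups was a condition for naming the single tiles of largest difference here.

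Chromosome 14 had the lowest median difference between the lines among the autosomes, at -0.45. Of its 87 highest-signal tiles 46 were lower and 0 higher in DNMT_WT. On chromosome 6 the median was also negative, -0.072, with 5 of 42 tiles lower and 3 higher. Reads per tile over the whole of chromosome 14 were 0.698 ± 0.0032 times those of the other autosomes in DNMT_WT, and 1.09 ± 0.0061 times in TET_WT at day 2 (SD, n = 3 each). For chromosome 11 they were 1.449 ± 0.0019 and 1.323 ± 0.0113 times. With each chromosome of each library scaled to the same mean, a setting added after the data had been seen, the direction flipped: 17 of the 87 were higher and 3 lower, with a median of 0.17.

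**Figure D3:**
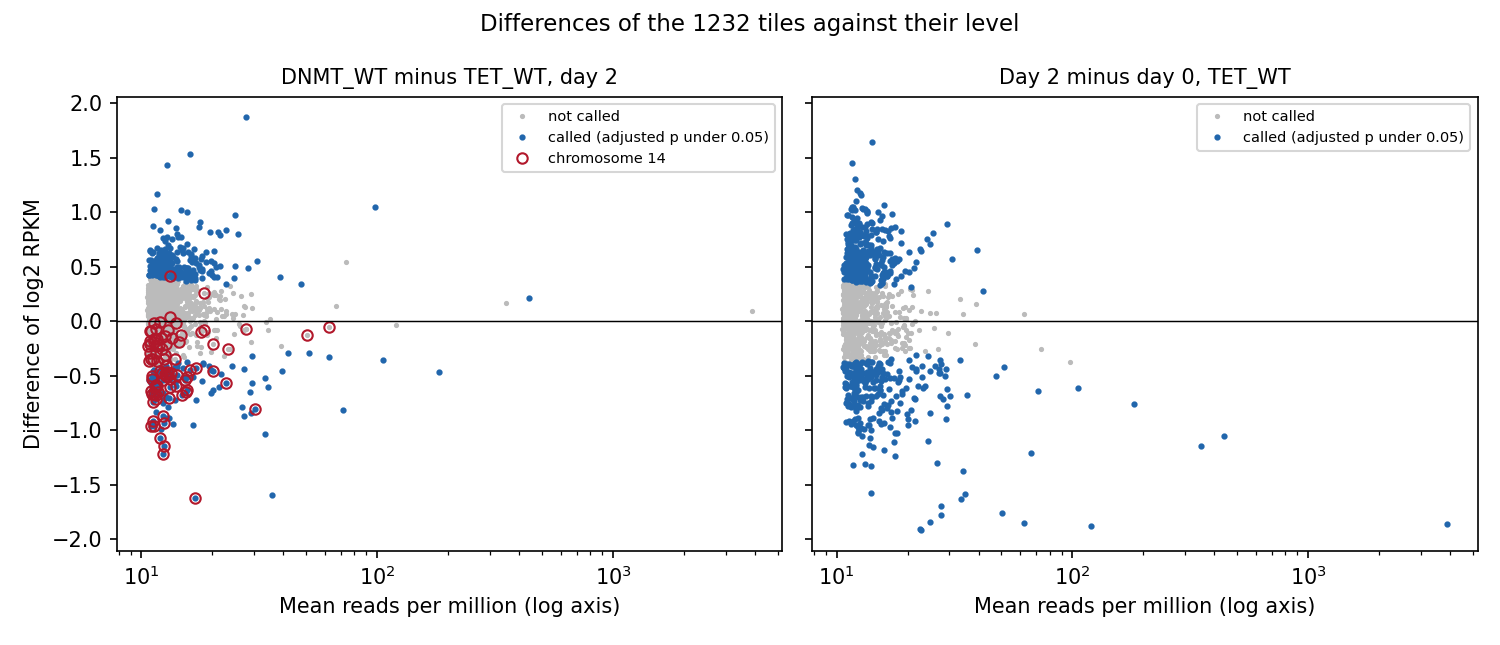
Difference of log2 RPKM of each of the 1232 tiles against its mean RPM over all libraries (log axis), for DNMT_WT minus TET_WT at day 2 (left) and day 2 minus day 0 in TET_WT (right). Blue points passed, grey points did not; red circles on the left are chromosome 14, with a median of -0.45. On the right, most tiles at 32 or more lie below 0, on a horizontal axis to which day 0 itself contributes.

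Chromosome 8 held 368 of the 1232 tiles, or 29.9%, with 5.25% of the autosomal tiles. Chromosome 11 held 92, chromosome 14 87, chromosome 5 86 and chromosome 13, with the fewest, 19. Reads per tile over all of chromosome 8 were 1.61 ± 0.0013 times those of the other autosomes in DNMT_WT at day 2, and 1.57 ± 0.0379, 1.58 ± 0.0049 and 1.59 ± 0.0051 times in TET_WT at days 0, 1 and 2. All 11 libraries lay between 1.543 and 1.615. When each chromosome was scaled to the same mean, the rule chose 76 tiles on chromosome 8, and 827 of the 1232 tiles stayed in the set. Chromosome copy number was not measured, and its part was not tested. Between day 2 and day 0, 117 of the 368 rose and 75 fell, or 144 and 61 without day 0 replicate 2. In the fit of all libraries 52.2% of the 368 passed, near the 49.2% of all 1232. Of all tiles tested, 8.06% did.

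**Figure D4:**
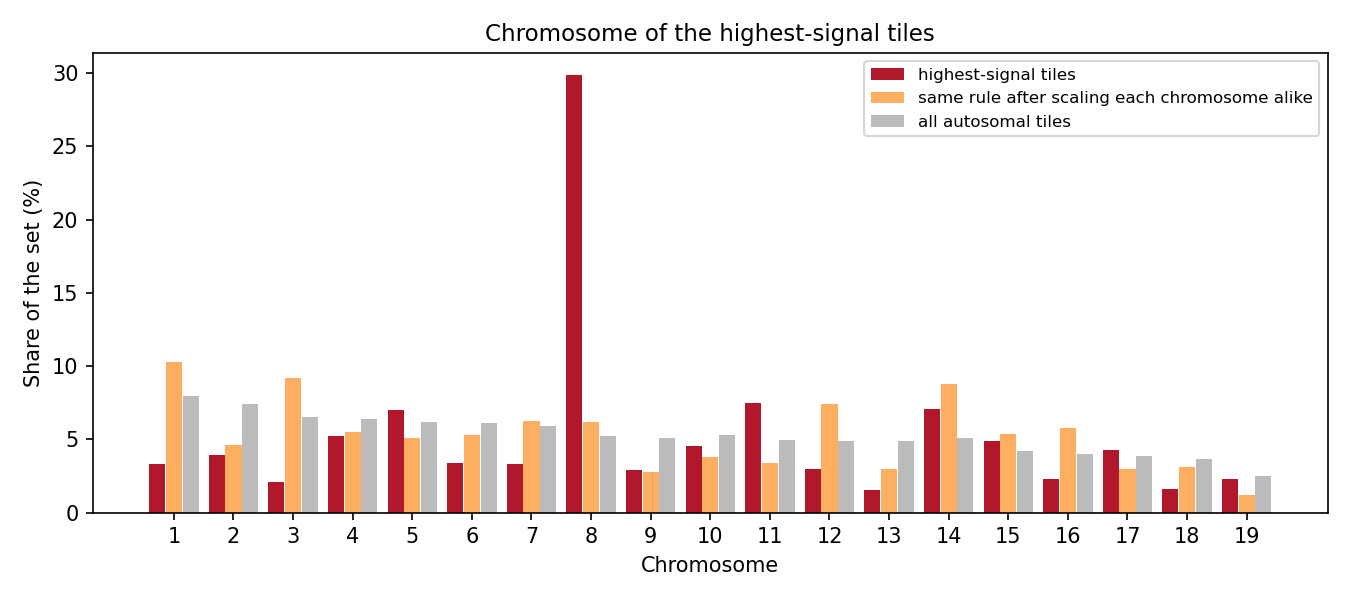
Share of the highest-signal tiles on each chromosome (red), of the tiles the same rule chose after each chromosome was scaled to the same mean (orange) and of all autosomal tiles (grey), in percent. Chromosome 8 holds 29.9% of the red set and 5.25% of the grey, and 76 of 1232 in the orange.

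Within genes the tiles sat towards the end. Of the 684 tiles in genes of at least 20 kb with a known strand, 53.8% lay in the last of 5 equal parts of the span and 4.8% in the first, against 20.6% and 20.7% of all autosomal tiles in such genes. Of the tiles that fill up the top 1%, 40.3% lay in the last part. Along chromosomes, 343 tiles (27.8%) lay in the last of 10 equal parts, and 128 of those were on chromosome 8. Only 48 of the 1232, or 3.90%, touched a promoter window, against 3.88% of the tiles that fill up the top 1% and 2.46% of all autosomal tiles.

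**Figure D5:**
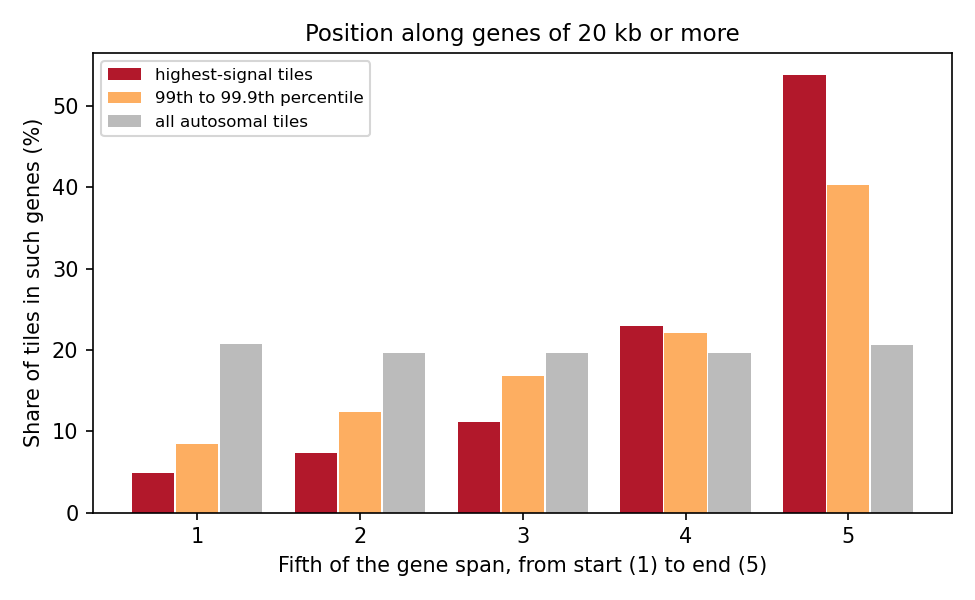
Share of tiles (percent) in 5 equal parts of the gene span, from start (1) to end (5), for genes of 20 kb or more with a known strand: highest-signal tiles (red, 684), tiles that fill up the top 1% (orange) and all autosomal tiles (grey). The red bars climb to 53.8% in the last part, while the grey ones stay near 20.6%.

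Tiles with starts at most 10 kb apart were joined into 940 loci. Of these, 760 held a single tile and 11 held at least 5. The largest was around Sfi1 with 24 tiles, 22 of them in the gene (chr11:3126001-3196000), followed by Fat1 with 12 (chr8:45008001-45044000), Gse1 with 7, and Plec, Ankrd11 and Galnt2 with 6 each. The loci of 5 were at Spen and Zbtb17, Pxn, Zfhx3, Fbxo31 and Ttc13.

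A tile of the set lay in 757 of 20665 autosomal protein-coding genes (3.66%), and 21 of these genes held at least 5. Fat1, a large cadherin, had 14. They summed to 355, 311 and 345 RPM in DNMT_WT at day 2, and in TET_WT to 320, 404 and 324 at day 0, 352 and 358 at day 1, and 250, 250 and 256 at day 2. Of the 14, 12 were higher and 0 lower in DNMT_WT than in TET_WT at day 2, and 10 fell and 1 rose between day 2 and day 0. Gse1, a subunit of a histone deacetylase complex, had 20, which summed to 407, 386 and 409 in DNMT_WT at day 2, and to 217, 278 and 218 at day 0, 301 and 295 at day 1, and 303, 334 and 314 at day 2 in TET_WT. Of the 20, 12 rose and 1 fell by day 2, or 14 and 1 without day 0 replicate 2. Zfhx3, a zinc finger homeobox factor, had 18, of which 4 rose and 8 fell, or 5 and 7 without day 0 replicate 2.

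Abcc4, a drug and nucleotide exporter on chromosome 14, had 11 tiles, of which 5 fell by day 2 and 5 were lower in DNMT_WT. Plec, the cytoskeletal linker plectin, had 6, of which 4 were higher and 0 lower in DNMT_WT. Pxn (paxillin of focal adhesions) and Piezo1 (a mechanically gated channel) each had 5, with 4 higher and 0 lower in DNMT_WT. Zfp423 had 6, of which 4 rose and 0 fell by day 2, or 5 and 0 without day 0 replicate 2. The other genes were Cdc42bpb, Cmip and Galnt2 with 8, Tenm3 with 7, Ankrd11, Cit, Dnah8, Fto and Wwc2 with 6, and Fbxo31, Slc10a7 and Ttc13 with 5.

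Gene lists were set beside the tiles. Of all autosomal protein-coding genes 3.66% held a tile, so a count of 0 or 1 in a short list says little. Of 21 autosomal genes known from partial duplications in the mouse assembly, 4 held a tile: Sfi1, Pisd-ps1, Rn18s-rs5 and Hjurp. Of 17 naive pluripotency genes 0 did, and of 10 formative epiblast genes only Lef1, a Wnt effector. Of 7 genes of the methylation machinery 2 did: Tet3 with 3 tiles summing to 51.2 RPM in DNMT_WT at day 2 and to 36.0, 42.6 and 44.7 in TET_WT at days 0, 1 and 2, and Dnmt1, the maintenance methyltransferase, with 1 tile at 13.7 in DNMT_WT at day 2 and at 12.6, 11.1 and 10.3 in TET_WT. Of 9 blood genes only Spi1 did. Among families, 28 of 409 Zfp genes did, but 0 of 1420 Olfr and 0 of 623 Vmn genes, which form large clusters. Hjurp, a centromere chaperone, averaged 10.9 RPM in DNMT_WT at day 2, and 22.8, 15.1 and 11.8 in TET_WT at days 0, 1 and 2.

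The promoters inside the tiles belonged to 22 protein-coding and 20 lncRNA genes. Of the 41 tiles that hold them, 3 rose and 14 fell between day 2 and day 0, with a median difference of -0.17. Of the 1232 tiles, 344 rose and 262 fell, and of all tiles tested 5.36% rose and 2.7% fell. Without day 0 replicate 2, 9 of the 41 rose and 12 fell, against 456 and 216 of the 1232. Several of the genes are known for expression in germ cells: Dazl, Mov10l1 (a piRNA helicase), Slc25a31 (a testis ADP/ATP carrier), Btbd18, Dpep3, Actl7b and H1f7 (a spermatid linker histone). They were singled out after their values had been seen, from no fixed list. The share of such genes among all promoters was not counted. The Dazl tile averaged 13.2 RPM in DNMT_WT at day 2, and 21.7, 17.8 and 11.3 in TET_WT at days 0, 1 and 2, with a log2 difference of -0.93 between day 2 and day 0 (SE 0.11, adjusted p = 2.17e-11). The Slc25a31 and Dpep3 tiles also fell, by 0.53 and 0.47. The tiles of Mov10l1, Btbd18, Actl7b and H1f7 differed by -0.16, -0.13, -0.08 and -0.01 and did not pass. The Duxf3 tile averaged 15.7 in DNMT_WT at day 2, and 38.4, 37.2 and 28.1 in TET_WT at days 0, 1 and 2, and was lower in DNMT_WT by a difference of -0.84 (SE 0.10, adjusted p = 1.96e-12). Dux genes stand in a tandem array, so how reads were placed among copies is uncertain.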

How the data were processed

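The series table holds log2 RPKM per 2 kb tile, as deposited by the authors for 11 libraries. Per the submitters' processing notes, reads were handled with Trim Galore 0.6.5, cutadapt 2.3, Bowtie2 2.4.1 and build GRCm38. The tool that counted reads per tile, and the treatment of multiply mapping and duplicate reads, are not given in the sources used here. An empty tile was listed at the level that 0.9 of a read would give, and at least 99.9999% of values were whole reads within 0.1%, from which RPM was computed over the reads recovered on all tiles. Genes and promoters come from RefSeq tables of GRCm38.p6. Groups came from the titles. limma 3.58.1 (R 4.3.3; lmFit, eBayes with a variance trend) was fitted to all 11 libraries on chromosomes 1 to 19 and X, without the lowest 10% of tiles by mean, and p-values were Benjamini-Hochberg adjusted, two-sided. The fit was tested on simulated data. Python 3.11.15, pandas 2.3.3, numpy 2.4.6 and matplotlib 3.10.9 made summaries and figures. Whether same-numbered libraries were paired could not be told from their deviations. Alternatives were median centring, voom, equal depth, no filter, a replicate block, no variance trend, fewer groups, each library left out and chromosome scaling. Named tiles were the 10 highest, at most 1 per locus, and per comparison up to 4 called tiles in each direction with the largest difference and no overlap. Named genes held at least 5 tiles. The tiles, lists and rules were chosen with earlier results of these data known.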

Additional observations from a re-analysis of the deposited data

Results flagged for a closer look

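On the X chromosome, outside the autosomal rule, chrX:143482001-143484000 was the only tile above the threshold. It held 35.1, 38.4 and 35.6 RPM in DNMT_WT at day 2. In TET_WT it held 92.2, 4.69 and 107.97 at day 0, 58.2 and 53.3 at day 1, and 34.8, 34.0 and 40.4 at day 2. It is given because it lies outside the data compared above; day 0 replicate 2 was low there, as at 3 autosomal tiles.

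Reads on the mitochondrial tiles, also outside the comparisons, reached 57.808 RPM. They were 56.4, 57.8 and 55.9 in DNMT_WT at day 2, and in TET_WT 34.1, 7.27 and 51.7 at day 0, 29.0 and 19.5 at day 1, and 1.75, 4.01 and 3.98 at day 2. No unenriched library was analysed against which to set these values.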

How the results depend on the processing

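The counts of tiles that passed differed between settings of the fit, the scaling and the depth. Out of 1232, day 2 against day 0 gave 606, and 136 with each library centred on its median, 90 at equal depth and 14 without the variance trend (90 split into 42 higher and 48 lower). Day 1 against day 0 gave 202, and 307 with voom on the recovered reads, 100 with chromosome scaling, 53 with only the groups compared, 2 at equal depth, 0 with median centring and 0 without the trend; unadjusted p under 0.05 was reached by 122 with median centring and 63 without the trend. Day 2 against day 1 gave 211, and 122 with chromosome scaling, 2 with median centring, 0 at equal depth and 0 without the trend, where 197 and 49 reached an unadjusted p under 0.05. DNMT_WT against TET_WT gave 348, and 524 with voom, 179 with chromosome scaling, 33 with median centring, 10 at equal depth and 1 without the trend. Equal depth thinned every library to the shallowest, so fewer reads entered. The causes of these shifts were not tested.

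Leaving out 1 library at a time gave 505 to 672 for day 2 against day 0, 60 to 364 for day 1 against day 0, 85 to 337 for day 2 against day 1 and 218 to 478 for the lines. Beyond 1.5 times, day 1 against day 0 gave 60 without day 1 replicate 2 and 364 without day 0 replicate 2. Day 2 against day 1 gave 85 and 124 without day 1 replicates 2 and 3, 129 without day 2 replicate 2 and 337 without day 0 replicate 2. The lines gave 218 without DNMT_WT replicate 1.

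Same-numbered libraries deviated from their group means with correlations of -0.098 to 0.105, others of -0.105 to 0.098. In groups of 2 or 3 libraries such deviations offset each other, so these values cannot exclude pairing. A fit with the replicate number as a block gave 590, 174, 180 and 338 in the same order of comparisons. With only non-member autosomal reads as denominator, the summed signal was 22017 RPM in DNMT_WT at day 2, and 27870 at day 0, 23662 at day 1 and 20159 at day 2 in TET_WT. Near runs without reads, 48 tiles lay within 200 kb and 18 within 50 kb.

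Of the 32 calls at named tiles, 25 were lost without the trend, 18 at equal depth and 15 with median centring, 1 each with voom, chromosome scaling (both chr2:98664001-98666000) and without day 1 replicate 2 (Cdc42bpg). None changed direction. Since values are scaled within a library, a shift of 5hmC over the whole genome is not measured, and the depth of day 1 replicate 2 limits every day 1 value. Other choices of rule (a median, a mean of groups, a mean on the linear scale, each library left out) shared 1095 to 1207 of the 1232 tiles.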
